A study of Mus musculus with 39 samples.

Results

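The unfolded protein response and the integrated stress response were followed through 36 genes in lung and colon of mice with and without Cd177. The genes were taken by symbol from the 55357 genes listed in each of the deposited tables, and all 36 were found. They comprise 14 endoplasmic reticulum (ER) chaperones and folding enzymes, 5 genes of ER-associated degradation (ERAD), 5 sensors and transcription factors, and 12 targets of the transcription factor ATF4. Ddit3 has 2 entries in each table, of which 1 is listed at 0 in every library and was left out.

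The study sequenced mRNA-enriched RNA from C57BL/6N mice. KO mice lacked Cd177, which encodes a surface protein of neutrophils, and WT mice carried it. Both genotypes had either acute pancreatitis (AP), in which the inflamed pancreas can harm lung and gut, or a sham operation. The 8 groups were KO AP, KO sham, WT AP and WT sham in each tissue, with 5 libraries in each group except KO AP colon, which had 4. The kind of deletion, the way pancreatitis was induced, the time of sampling and the animals' age and sex are not given in the labels used here. The labels do not say that the libraries of a group came from separate animals, so the p-values measure the spread between these libraries. Values are FPKM, fragments scaled to transcript length and library size, and are listed in the order of the library numbers, which are 1, 3, 4 and 5 in KO AP colon. A difference is a difference of means of log2(FPKM + 1) with its standard error (SE), and it passed the test where limma's Benjamini-Hochberg adjusted p over all genes of the tissue was under 0.05. On this scale the change of a gene with low FPKM is understated. In tissue RNA, fewer cells of a type and less RNA per cell cannot be told apart.

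The ER folds secreted and membrane proteins, and unfolded proteins there are sensed by IRE1 (Ern1), PERK (Eif2ak3) and ATF6. IRE1 splices Xbp1 mRNA into the form that encodes an active factor, and XBP1 with the released part of ATF6 drives the chaperone and ERAD genes. PERK phosphorylates the translation factor eIF2α, as do kinases that sense amino acid shortage, heme shortage and viral RNA. Translation then slows while ATF4 is made, and ATF4 drives genes of amino acid supply, one-carbon metabolism and CHOP (Ddit3). Secretory cells such as goblet, plasma and alveolar type 2 cells carry a large ER and high chaperone levels without acute stress. Chaperone genes are commonly read for the ATF6 and XBP1 branches, and ATF4 targets for PERK and the other kinases.

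Promoter letters known for the chaperone branch and for ATF4 were searched, because the results set chaperones against ATF4 targets. RefSeq windows of the GRCm38.p6 build, from 250 bases before to 50 bases after the gene's start, were found for 33 of the 36 genes; Manf, Hyou1 and Atf6 had none. Both strands were searched for the ER stress response element (CCAAT, any 9 bases, then CCACG), which was in 7 of 12 chaperone windows, 2 of 5 ERAD windows, 0 of 4 windows of sensors and factors and 0 of 12 windows of ATF4 targets. It was in 0.119% of all 32851 windows. ER stress response element II (ATTGG, any 1 base, then CCACG) was in the windows of Dnajb11 and Herpud1 and in 0.0365% of all windows. The XBP1 and ATF6 site TGACGTGG was in none of the 33 windows and in 0.676% of all. The ATF4 site TGATGCAA was in the windows of Herpud1 and Chac1 and in 0.895% of all, and the looser TGATGNAA, which those letters also match, was in these and in the windows of Asns and Trib3 and in 3.97% of all. The letters were chosen because they are known for these branches, so their shares among the members are a description and not a test. A match is a run of letters and not a measured binding site, and a window without one does not speak about the factor.

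The 7 windows below run 5′ to 3′ on the gene's strand with the matched letters in capitals. The first 4 hold the ER stress response element: Hspa5 (chr2:34771840-34772139, plus strand), Pdia6 (chr12:17266339-17266638, plus strand), Creld2 (chr15:88819396-88819695, plus strand) and Derl3 (chr10:75893148-75893447, plus strand). Herpud1 (chr8:94386179-94386478, plus strand) holds element II and an ATF4 match. Asns (chr6:7693160-7693459, minus strand) and Trib3 (chr2:152344011-152344310, minus strand) hold the looser ATF4 letters alone.
Hspa5: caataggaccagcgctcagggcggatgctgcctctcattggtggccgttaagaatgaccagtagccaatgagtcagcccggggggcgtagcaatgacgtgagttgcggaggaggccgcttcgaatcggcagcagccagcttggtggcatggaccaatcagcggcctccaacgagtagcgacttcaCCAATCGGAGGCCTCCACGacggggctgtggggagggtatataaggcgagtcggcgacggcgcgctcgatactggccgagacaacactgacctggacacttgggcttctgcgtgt
Pdia6: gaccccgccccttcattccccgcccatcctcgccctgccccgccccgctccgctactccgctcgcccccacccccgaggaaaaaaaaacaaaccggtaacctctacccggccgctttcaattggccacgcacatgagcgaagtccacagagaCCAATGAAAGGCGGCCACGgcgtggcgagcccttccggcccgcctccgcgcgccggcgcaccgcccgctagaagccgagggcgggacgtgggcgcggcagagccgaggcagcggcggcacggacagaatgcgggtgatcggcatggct
Creld2: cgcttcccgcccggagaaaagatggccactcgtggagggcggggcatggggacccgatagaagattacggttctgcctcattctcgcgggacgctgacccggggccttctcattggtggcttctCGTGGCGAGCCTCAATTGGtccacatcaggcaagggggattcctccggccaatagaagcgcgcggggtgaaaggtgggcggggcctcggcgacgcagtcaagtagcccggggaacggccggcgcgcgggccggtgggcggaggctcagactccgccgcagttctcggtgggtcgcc
Derl3: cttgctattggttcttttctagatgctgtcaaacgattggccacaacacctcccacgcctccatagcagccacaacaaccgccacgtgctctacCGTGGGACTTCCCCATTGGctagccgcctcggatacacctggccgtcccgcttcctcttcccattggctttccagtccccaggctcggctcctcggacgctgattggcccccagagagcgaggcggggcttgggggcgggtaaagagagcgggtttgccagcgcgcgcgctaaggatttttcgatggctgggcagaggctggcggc
Herpud1: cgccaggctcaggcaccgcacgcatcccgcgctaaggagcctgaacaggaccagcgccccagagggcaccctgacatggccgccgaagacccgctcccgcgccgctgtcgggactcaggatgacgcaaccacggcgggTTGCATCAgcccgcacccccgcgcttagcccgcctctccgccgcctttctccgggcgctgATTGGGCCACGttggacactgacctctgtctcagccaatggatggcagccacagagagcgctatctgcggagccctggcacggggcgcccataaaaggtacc
Asns: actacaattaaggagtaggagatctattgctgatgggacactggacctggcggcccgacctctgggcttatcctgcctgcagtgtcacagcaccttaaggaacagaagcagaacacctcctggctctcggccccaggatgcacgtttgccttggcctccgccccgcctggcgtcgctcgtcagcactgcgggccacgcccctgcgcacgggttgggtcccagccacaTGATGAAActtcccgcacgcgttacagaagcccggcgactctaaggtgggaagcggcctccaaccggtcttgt
Trib3: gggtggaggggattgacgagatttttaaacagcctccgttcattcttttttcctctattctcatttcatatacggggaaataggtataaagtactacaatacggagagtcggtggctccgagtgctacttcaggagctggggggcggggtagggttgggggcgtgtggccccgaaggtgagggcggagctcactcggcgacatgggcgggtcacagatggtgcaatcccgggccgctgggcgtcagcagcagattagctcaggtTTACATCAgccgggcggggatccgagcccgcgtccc

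Cd177 was listed at 0 FPKM in all KO libraries, against 1.31 to 4.18 FPKM in WT lungs and 38.5 to 76.4 FPKM in WT colons (exact two-sided permutation p = 0.0159 in AP colon and 0.00794 in the other pairs of groups, the smallest each design allows). Depth, recovered from the steps between FPKM values, was 77.0 to 95.4 M reads (M, mega) in KO lungs against 57.9 to 71.2 M reads in WT lungs, and 77.7 to 98.6 M reads in KO colons against 55.6 to 78.3 M reads in WT colons. Genotype and sequencing depth cannot be told apart in the lung, where the ranges do not overlap. Libraries of a group correlated with each other at 0.929 to 0.962 in KO lungs against 0.968 to 0.988 in WT lungs, and at 0.934 to 0.954 in KO colons against 0.942 to 0.975 in WT colons (mean Pearson r of log2 values). In 7 of 19 colon libraries and 5 of 20 lung libraries the mean correlation was higher with the other treatment of the same genotype than with the library's own group. In the lung these included KO sham libraries 1, 2 and 3. Lung KO sham library 1 was at 0.954 with the KO AP libraries and 0.943 with its own group. The widest gaps in the colon were those of KO sham library 1, at 0.957 with the KO AP libraries and 0.940 with its own group, and KO AP library 1, at 0.945 with the KO sham libraries and 0.934 with its own group. KO AP colon library 4 followed, at 0.946 with the KO sham libraries and 0.940 with its own group. All libraries were kept as labelled, and whether the labels of the 2 colon libraries numbered 1 were exchanged cannot be told from the labels. Counts of members called in KO colons are given with and without these 2 libraries. Values of single genes, scores, further lists and markers are given with all libraries unless stated. The 6 absorptive colonocyte markers were under 1 FPKM in every lung library, and 4 of 6 alveolar type 2 markers were under 1 FPKM in every colon library.

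In sham lungs 24 of the 36 genes were higher in KO mice than in WT mice and 4 were lower. In AP lungs 14 were higher and 5 were lower. The largest lung differences were those of ATF4 targets. Chaperones such as Manf and Pdia6 were among those higher, while the sensors Ern1, Eif2ak3 and Atf6 were lower in both treatments. In KO sham colons 10 genes were higher and 5 lower, against 1 higher and 8 lower in KO AP colons. No gene was called in opposite directions in the colon: Edem1, Ern1 and Eif2ak3 were lower and Cebpb higher in both treatments. A direct test of whether the KO effect in colon changed with treatment passed for no member. Of the 9 genes called in AP colons, 7 were lost without some single library.

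These counts stand against wide differences between genotypes over all genes. In AP lungs 55.8% of the 15978 genes tested differed (27.6% higher and 28.1% lower in KO), and of the 36 members 38.9% were higher and 13.9% lower. In sham lungs 58.8% of genes differed (28.8% higher and 30% lower in KO), and of the members 66.7% were higher and 11.1% lower. In AP colons 18.3% of the 15001 genes tested differed (7.37% higher and 10.9% lower in KO), and of the 35 members tested 2.86% were higher and 22.9% lower. In sham colons 31.4% of genes differed (16% higher and 15.4% lower in KO), and of the members 28.6% were higher and 14.3% lower. Trib3 was too low to be tested in the colon. Taken by role, 21.4% of chaperones and 58.3% of ATF4 targets were higher in AP lungs, and 71.4% and 83.3% in sham lungs. The share of chaperones higher in AP lungs was thus below that of all genes. The members higher in sham lungs thus had the share farthest above its background, and those higher in AP lungs, higher in sham colons and lower in AP colons also exceeded theirs. The members lower in the lung, in either treatment, had a share below theirs.

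The balance of higher and lower genes depended on the scaling. When FPKM were rescaled to TPM, which have the same sum in each library, the median of all genes moved to -0.16 in AP lungs, -0.23 in sham lungs, -0.12 in AP colons and -0.14 in sham colons, against 0.00, -0.01, -0.01 and 0.01 as deposited (log2, KO minus WT). The split of all genes called then moved to 2975 higher and 5512 lower in KO, against 4412 and 4496 as deposited, in AP lungs, and to 2887 and 6194, against 4606 and 4787, in sham lungs. In AP colons it moved to 552 and 1738, against 1106 and 1637, and in sham colons to 1256 and 2707, against 2398 and 2306. Members stood at 12 higher and 5 lower in AP lungs on the TPM scale, 19 higher and 6 lower in sham lungs, 0 higher and 8 lower in AP colons, and 7 higher and 5 lower in sham colons. The median chaperone and ATF4 target kept their sign in each of these 4 comparisons.

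**Figure D1:**
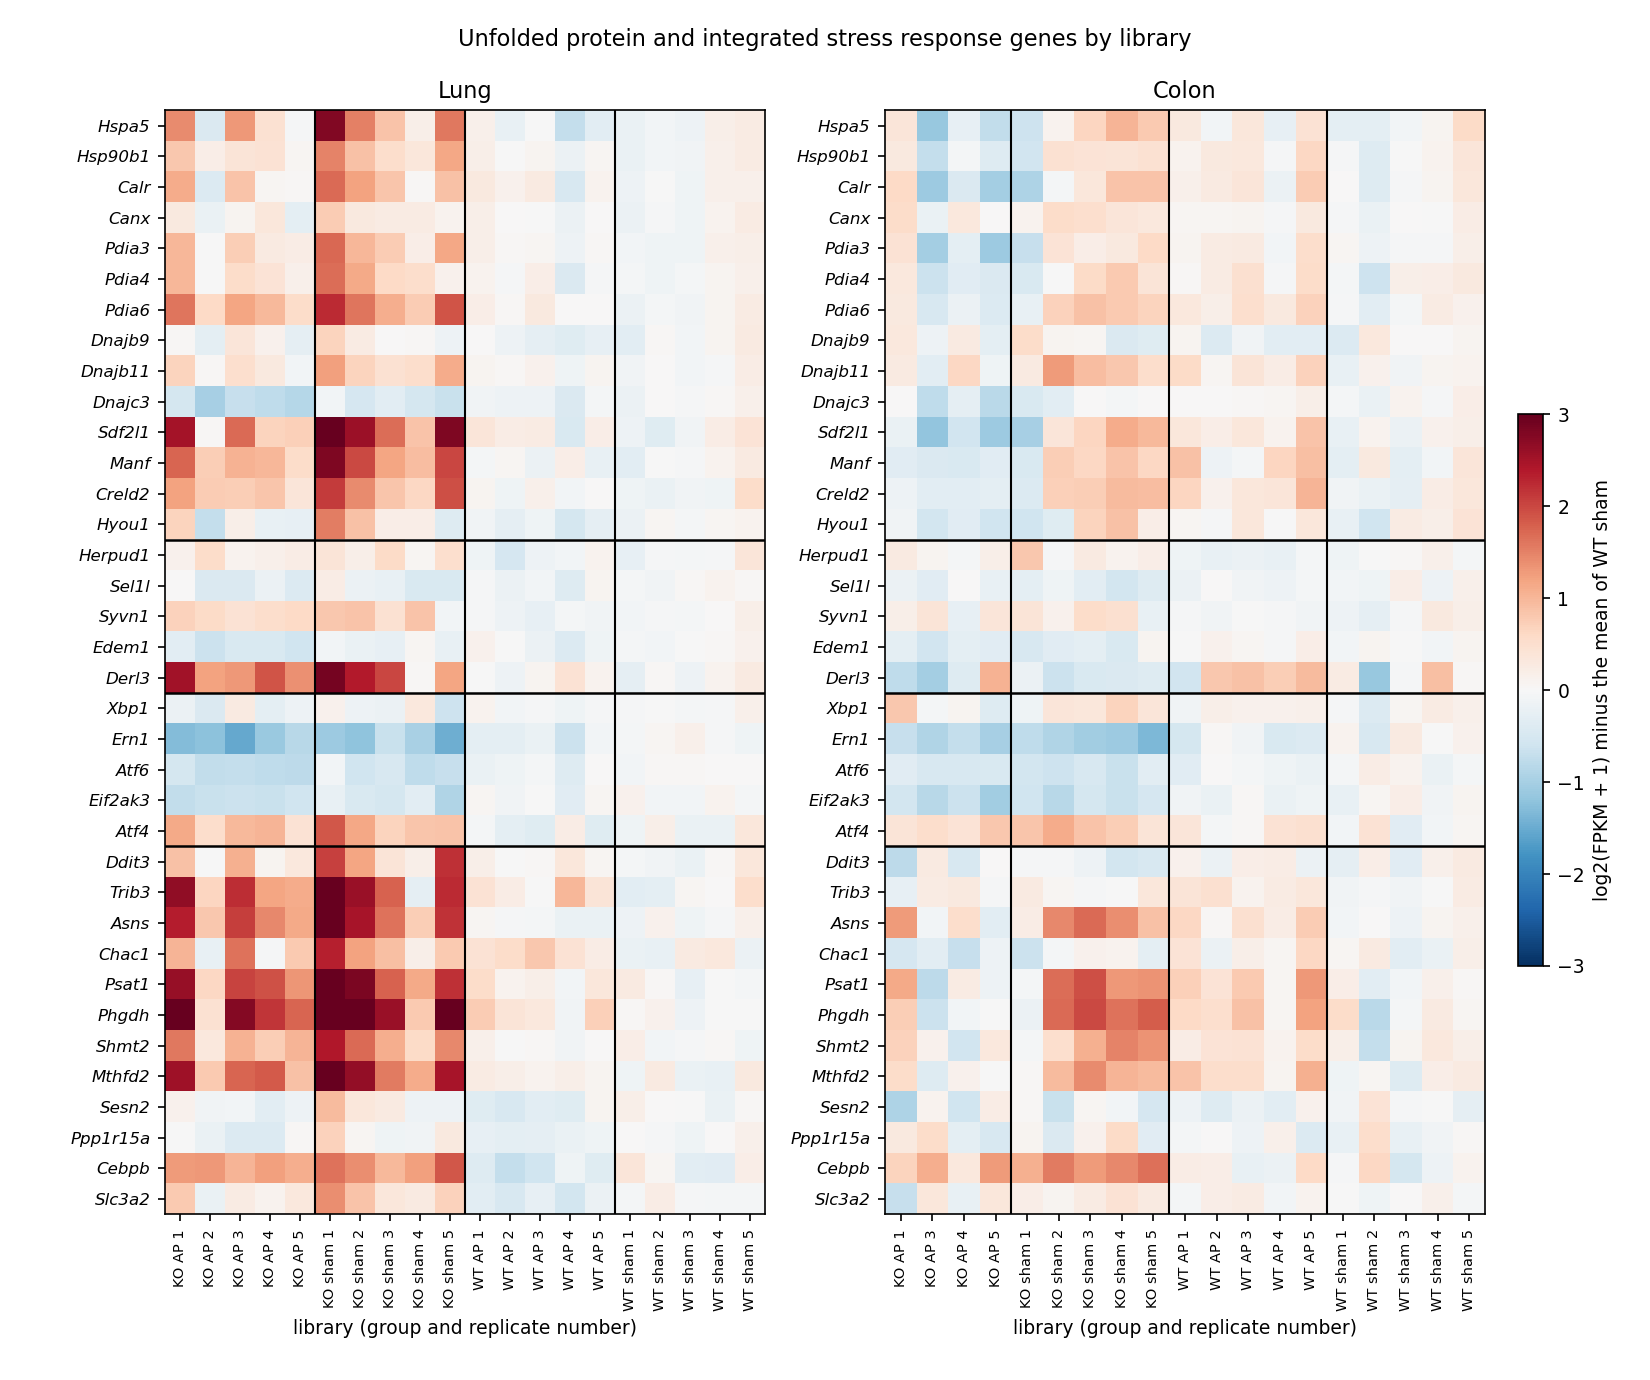
Each row is 1 of the 36 genes, ordered by role, and each column 1 library; the colour is log2(FPKM + 1) minus the mean of the WT sham libraries of the same tissue, clipped at 3 on either side. KO lung libraries are mostly above this level for chaperones and ATF4 targets and below it for Ern1, Eif2ak3 and Atf6, and in KO colons the AP libraries other than 1 are mostly below it for chaperones.

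**Figure D2:**
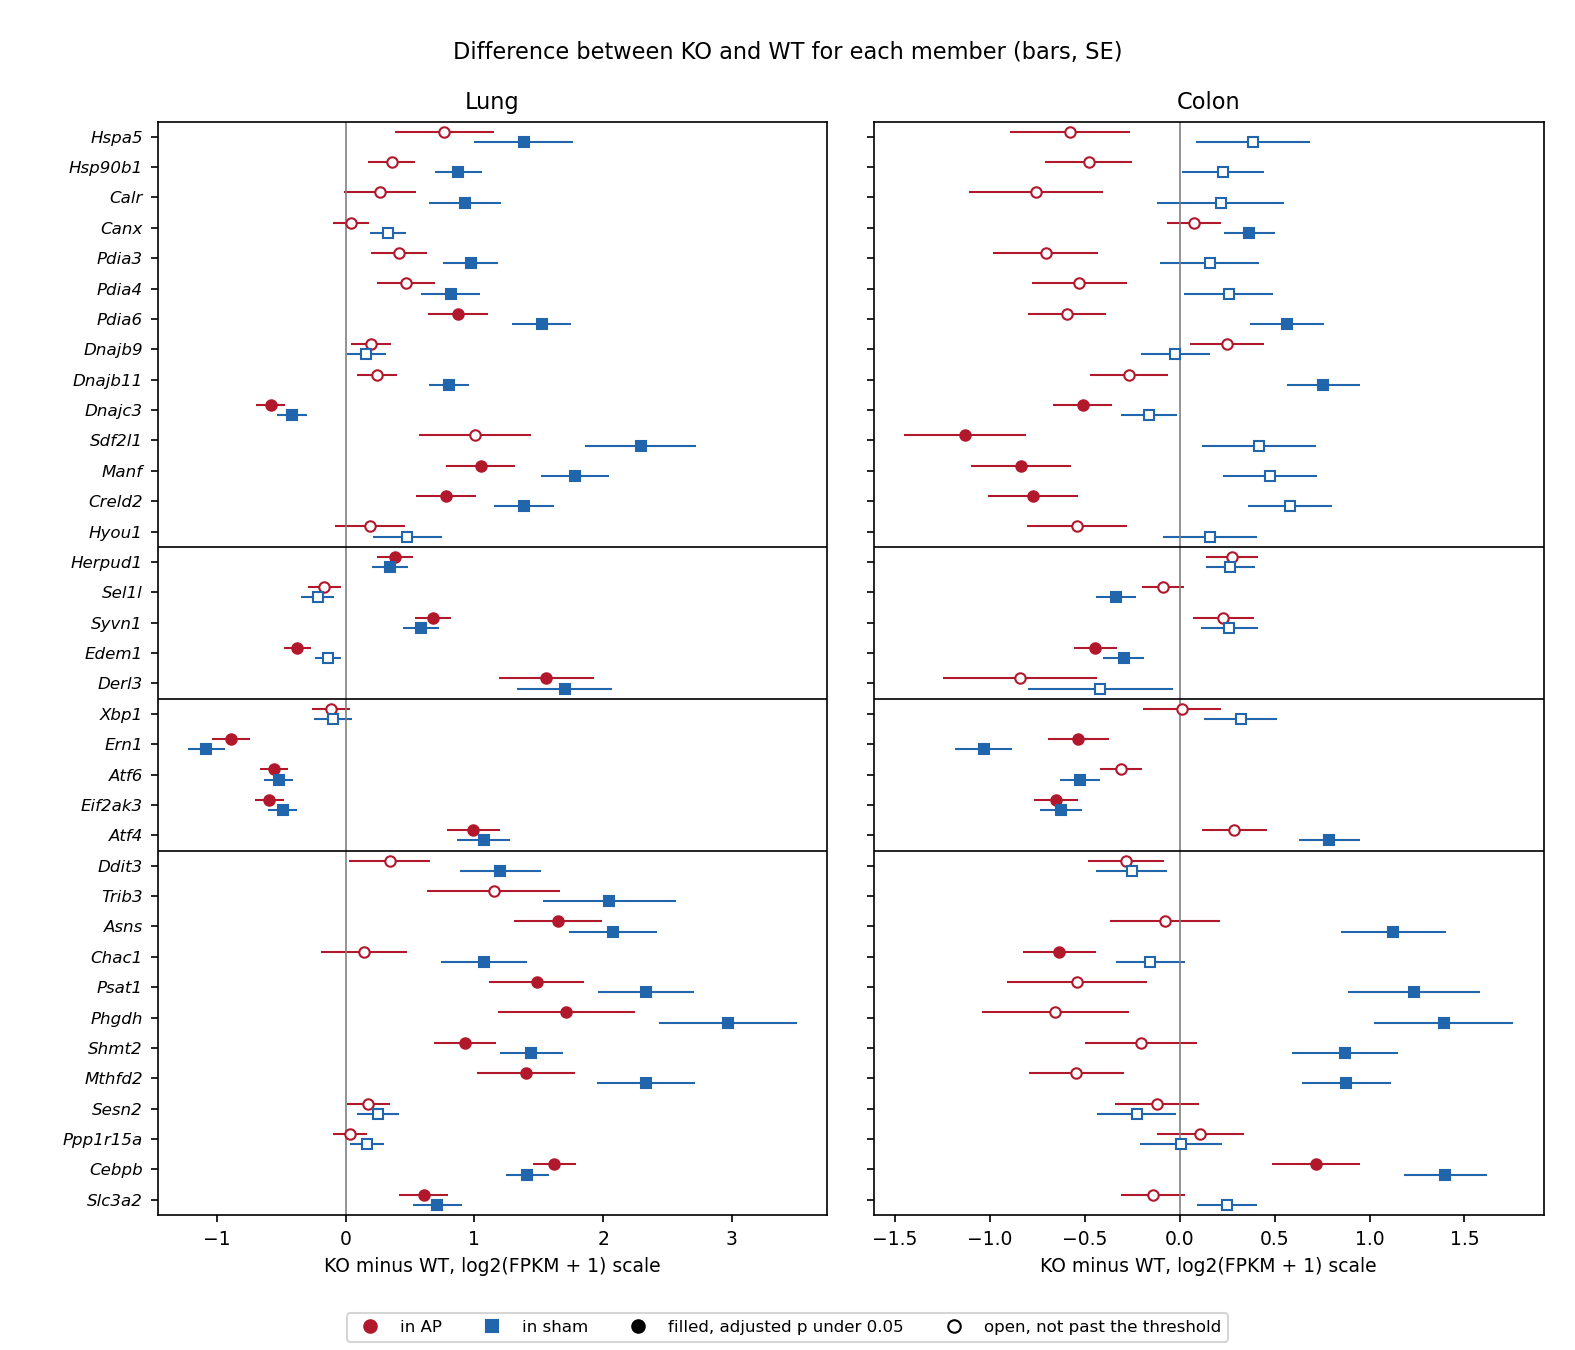
Difference between KO and WT of each gene in mean log2(FPKM + 1), with its SE, in AP (red circles) and sham (blue squares), for lung and colon; filled symbols passed the test at an adjusted p under 0.05. In lung 19 genes passed in AP and 28 in sham, and in colon 9 in AP and 15 in sham.

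Of the 12 genes that differed between KO and WT with a sham operation in both tissues, all had the same direction in each. Pdia6, Dnajb11, Atf4, Asns, Psat1, Phgdh, Shmt2, Mthfd2 and Cebpb were higher in KO, and Ern1, Atf6 and Eif2ak3 were lower. These 12 were 42.9% of the 28 called in sham lungs and 80.0% of the 15 called in sham colons. The 28 include Trib3, which was not tested in colon and so could not be shared. Over the 13635 genes tested in both tissues, 43.9% of those called in sham lungs and 81.1% of those called in sham colons were called in both, and 98.2% of the genes called in both had the same direction, so the members stood near the background here. With AP 7 genes differed in both tissues, which were 36.8% of the 19 called in lung and 77.8% of the 9 called in colon. Over all genes the shares with AP were 21.98% in lung and 68.9% in colon, and 92.7% of the genes called in both had the same direction. Cebpb was higher in KO in both, Dnajc3, Edem1, Ern1 and Eif2ak3 were lower in both, and Manf and Creld2 were higher in KO lungs and lower in KO colons. The tissues were fitted separately and this difference between them was not tested.

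Of the 14 ER chaperones and folding enzymes in the lung, 3 were higher and 1 lower in KO than in WT with AP, and 10 were higher and 1 lower with a sham operation. Their median difference was 0.39 with AP and 0.90 with a sham operation (log2). The share of chaperones higher with AP, 21.4%, was below the 27.6% of all genes. With a sham operation it was 71.4%, beside 28.8% of all genes. Hspa5, which encodes BiP, the main Hsp70 chaperone of the ER, was at 324, 88.3, 295, 164 and 117 FPKM in KO AP lungs, against 132, 103, 118, 72.1 and 96 FPKM in WT AP lungs. KO AP libraries 1, 3 and 4 were above every WT AP library, libraries 2 and 5 were within the WT range, and the difference of 0.77 ± 0.38 (adjusted p = 0.0948) did not pass the test. It passed without KO AP library 2 (adjusted p = 0.0322) or KO sham library 1 (0.0465). Hspa5 with a sham operation was at 828, 344, 217, 137 and 359 FPKM in KO sham lungs, against 105, 114, 108, 135 and 141 FPKM in WT sham lungs. All KO sham libraries but library 4 were above the WT sham libraries, library 1 by far, and the difference was 1.38 ± 0.38 (adjusted p = 0.00444).

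Manf, a small ER protein that is released under stress and binds BiP, was at 106, 52.7, 65.1, 62.7 and 45.9 FPKM in KO AP lungs, against 29.9, 32.6, 27.2, 36 and 26.6 FPKM in WT AP lungs. Manf with a sham operation was at 222, 127, 71.5, 60.4 and 128 FPKM in KO sham lungs, against 24.8, 31, 30.2, 33.4 and 37.4 FPKM in WT sham lungs. Every KO library was above every WT library of its treatment, and the differences were 1.05 ± 0.27 (adjusted p = 0.00266) with AP and 1.78 ± 0.27 (adjusted p = 1.78e-05) with a sham operation. Pdia6, a disulfide isomerase, was at 211, 104, 158, 135 and 101 FPKM in KO AP lungs, against 78.2, 70.0, 84.6, 69.5 and 69.1 FPKM in WT AP lungs. Pdia6 with a sham operation was at 329, 212, 147, 117 and 256 FPKM in KO sham lungs, against 60.7, 65.3, 63.9, 72.5 and 81.8 FPKM in WT sham lungs. The KO and WT libraries again did not overlap, with differences of 0.87 ± 0.23 (adjusted p = 0.00337) in AP and 1.52 ± 0.23 (adjusted p = 1.9e-05) in sham lungs. Creld2, an ER protein with EGF-like repeats that ER stress induces, was at 113, 70.4, 46.9, 40.3 and 101 FPKM in KO sham lungs, against 23.6, 22.1, 23.7, 23.7 and 38.4 FPKM in WT sham lungs. WT sham library 5 came closest to the KO sham libraries without reaching them, and Creld2 differed by 1.38 ± 0.23 (adjusted p = 5.93e-05). With AP Creld2 differed by 0.78 ± 0.23 (adjusted p = 0.00833), a call that was lost when the trend with transcript length was removed (0.0931).

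Dnajc3, the co-chaperone p58IPK, went the other way. It was at 30.4, 21.6, 27.1, 25.6 and 23.8 FPKM in KO AP lungs, against 40.9, 39.5, 39.7, 32.4 and 42.2 FPKM in WT AP lungs. All KO AP libraries were below all WT AP libraries, and the difference was -0.58 ± 0.12 (adjusted p = 0.000351). With a sham operation it was -0.42 ± 0.12 (adjusted p = 0.00478), which was lost when the length trend was removed (0.737). Of the other chaperones, Sdf2l1, Dnajb11, Hsp90b1 (GRP94), Pdia3, Pdia4 and Calr (calreticulin) were higher in KO sham lungs, with differences between 0.80 for Dnajb11 and 2.29 for Sdf2l1. On the TPM scale the calls of Calr (0.0698) and Pdia4 (0.0895) were lost. Canx (calnexin), Dnajb9 and Hyou1 did not pass the test in either treatment. Canx missed it narrowly in sham lungs at 0.33 ± 0.14 (adjusted p = 0.05).

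Of the 5 ERAD genes in the lung, 3 were higher and 1 lower in KO with AP, and 3 were higher with a sham operation. With AP these shares were 60% and 20%, beside 27.6% and 28.1% of all genes. With a sham operation 60% were higher, beside 28.8% of all genes. Syvn1, the ubiquitin ligase HRD1, was at 34, 31, 28.2, 30.4 and 31.8 FPKM in KO AP lungs, against 20.2, 18.5, 17.3, 19.9 and 19.2 FPKM in WT AP lungs. Syvn1 with a sham operation was at 37.1, 38.3, 28.9, 38.5 and 19.3 FPKM in KO sham lungs, against 19.4, 20.2, 19.7, 20.7 and 23.5 FPKM in WT sham lungs. The AP groups did not overlap, while KO sham library 5 was below the WT sham libraries, and Syvn1 differed by 0.68 ± 0.14 (adjusted p = 0.000495) with AP and 0.58 ± 0.14 (adjusted p = 0.00152) with a sham operation, of which the sham call was lost on the TPM scale (0.16). Derl3, a derlin of the channel through which proteins leave the ER, was at 15.9, 5.81, 6.23, 9.99 and 6.66 FPKM in KO AP lungs, against 1.94, 1.66, 2.12, 3.02 and 2.2 FPKM in WT AP lungs. Derl3 with a sham operation was at 20.7, 14.4, 10.9, 2.05 and 5.76 FPKM in KO sham lungs, against 1.44, 2.01, 1.68, 2.2 and 2.59 FPKM in WT sham lungs. Its KO AP libraries were all above the WT AP libraries and KO sham library 4 alone lay within the WT sham range, with differences of 1.56 ± 0.37 (adjusted p = 0.00155) in AP and 1.70 ± 0.37 (adjusted p = 0.000649) in sham lungs.

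Edem1, a mannosidase-like protein that hands glycoproteins to ERAD, was at 11.4, 8.92, 10.4, 10.3 and 9.33 FPKM in KO AP lungs, against 16.1, 14.4, 12.8, 10.7 and 13.1 FPKM in WT AP lungs. KO AP library 1 overlapped the lowest WT AP library, and Edem1 was lower at -0.38 ± 0.10 (adjusted p = 0.00418), a call lost when the length trend was removed (0.891). With a sham operation Edem1 differed by -0.14 ± 0.10 (adjusted p = 0.252) and did not pass, and with the length trend removed the difference was 0.32 (adjusted p = 0.00927). Herpud1, a scaffold of the HRD1 complex, was at 179, 155, 206, 144 and 196 FPKM in KO sham lungs, against 116, 135, 131, 133 and 177 FPKM in WT sham lungs. The sham groups overlapped, and Herpud1 differed by 0.34 ± 0.14 (adjusted p = 0.0413). That call was lost without any 1 of KO sham libraries 1 (0.0675), 3 (0.106) and 5 (0.0819) or any 1 of WT sham libraries 1 (0.109), 2 (0.0704), 3 (0.078) and 4 (0.0738), and on the TPM scale (0.698), on the scale set by the upper quartile (0.0636), with no filter on low values (0.0691), with array weights (0.0554), with the sham groups alone (0.0704) and with the length trend removed (0.882). With AP Herpud1 differed by 0.38 ± 0.14 (adjusted p = 0.0267), which was lost without KO AP library 2 (0.0813) or WT AP library 2 (0.092), on the TPM scale (0.289) and with the length trend removed (0.447). Sel1l, the adaptor of HRD1, did not pass in either treatment.

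Among the sensors and factors in the lung, Ern1, Eif2ak3 and Atf6 were lower in KO in both treatments, Atf4 was higher in both, and Xbp1 did not pass in either. In each treatment 60% were lower, beside 28.1% of all genes with AP and 30% with a sham operation. The 20% higher was below the 27.6% and 28.8% of all genes in the same order. Ern1, which encodes the sensor IRE1α, was at 5.28, 5.6, 4.34, 6.18 and 7.61 FPKM in KO AP lungs, against 11.6, 11.6, 12.3, 8.83 and 13.5 FPKM in WT AP lungs. Ern1 with a sham operation was at 6.3, 5.64, 8.7, 6.87 and 4.55 FPKM in KO sham lungs, against 13.8, 15.1, 16.1, 14.1 and 13.1 FPKM in WT sham lungs. Every KO library was below every WT library of its treatment, and the differences were -0.89 ± 0.14 (adjusted p = 5.07e-05) with AP and -1.08 ± 0.14 (adjusted p = 5.44e-06) with a sham operation. Eif2ak3, which encodes PERK, was at 5.88, 6.22, 6.34, 6.33 and 6.69 FPKM in KO AP lungs, against 11, 9.68, 10.52, 8.08 and 11.1 FPKM in WT AP lungs. Those groups did not overlap, and Eif2ak3 differed by -0.60 ± 0.11 (adjusted p = 0.000227). With a sham operation the difference was -0.49 ± 0.11 (adjusted p = 0.0011), which was lost when the length trend was removed (0.0654).

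Atf6, the membrane-bound factor that is cut in the Golgi under stress, was at 9.04, 7.64, 7.78, 7.51 and 7.32 FPKM in KO AP lungs, against 11.7, 12.2, 12.8, 10.1 and 13.5 FPKM in WT AP lungs. Atf6 with a sham operation was at 12.6, 8.62, 9.35, 7.54 and 7.96 FPKM in KO sham lungs, against 12.7, 13.7, 13.8, 13.6 and 13.5 FPKM in WT sham lungs. KO sham library 1 came close to the WT range and no KO library entered it, with differences of -0.56 ± 0.11 (adjusted p = 0.000371) in AP and -0.52 ± 0.11 (adjusted p = 0.000564) in sham lungs. With the length trend removed both calls were lost (0.308 in AP and 0.975 in sham lungs), and the sham difference was 0.01. Xbp1 was at 97.5, 81, 133, 90.2 and 98.5 FPKM in KO AP lungs, against 118, 104, 107, 99.9 and 106 FPKM in WT AP lungs. Xbp1 with a sham operation was at 120.3, 98.1, 97.8, 138 and 71.6 FPKM in KO sham lungs, against 107, 109, 105, 107 and 122 FPKM in WT sham lungs. KO libraries lay on both sides of the WT libraries, with differences of -0.12 ± 0.15 (adjusted p = 0.515) and -0.10 ± 0.15 (adjusted p = 0.587) in the same order; a gene-level FPKM does not separate spliced from unspliced Xbp1.

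Atf4, the factor at the centre of the integrated stress response, was at 206, 135, 184, 189 and 126 FPKM in KO AP lungs, against 89.2, 75.1, 72, 109 and 72.1 FPKM in WT AP lungs. Atf4 with a sham operation was at 342, 209, 147, 165 and 168 FPKM in KO sham lungs, against 85.4, 105, 80.3, 80.8 and 118 FPKM in WT sham lungs. The KO and WT libraries did not overlap in either treatment, and the differences were 0.99 ± 0.20 (adjusted p = 0.000498) and 1.07 ± 0.20 (adjusted p = 0.0002) in that order.

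Of the 12 ATF4 targets in the lung, 7 were higher in KO with AP and 10 with a sham operation, and none was lower. Their median difference was 1.04 with AP and 1.43 with a sham operation (log2). The shares of ATF4 targets higher were 58.3% and 83.3%, beside 27.6% and 28.8% of all genes. Asns, asparagine synthetase and a standard reporter of ATF4, was at 40.8, 13.4, 33.4, 21.3 and 17.1 FPKM in KO AP lungs, against 7.48, 7.03, 6.91, 6.19 and 6.18 FPKM in WT AP lungs. Asns with a sham operation was at 83.5, 44.5, 24.2, 12.6 and 36.1 FPKM in KO sham lungs, against 6.43, 7.95, 6.54, 7.01 and 8.17 FPKM in WT sham lungs. All WT lung libraries held less than 10 FPKM and all KO lung libraries more, and Asns differed by 1.65 ± 0.34 (adjusted p = 0.000526) with AP and 2.08 ± 0.34 (adjusted p = 4.81e-05) with a sham operation.

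Psat1, an enzyme of serine synthesis, was at 26.4, 5.83, 17.4, 15.8 and 10.2 FPKM in KO AP lungs, against 5.56, 3.81, 4.04, 3.23 and 4.63 FPKM in WT AP lungs. Psat1 with a sham operation was at 58.6, 30.52, 14.3, 8.89 and 19.3 FPKM in KO sham lungs, against 4.38, 3.57, 2.78, 3.45 and 3.31 FPKM in WT sham lungs. KO AP library 2 stood just above the highest WT AP library, and the differences were 1.48 ± 0.37 (adjusted p = 0.00241) in AP and 2.33 ± 0.37 (adjusted p = 3.47e-05) in sham lungs. Mthfd2, a mitochondrial enzyme of the folate cycle, was at 51.9, 21.5, 9.77, 6.9 and 19.3 FPKM in KO sham lungs, against 2.31, 3.4, 2.15, 2.09 and 3.47 FPKM in WT sham lungs. The sham groups did not overlap, and Mthfd2 differed by 2.33 ± 0.38 (adjusted p = 4.29e-05), against 1.40 ± 0.38 (adjusted p = 0.00423) with AP. Cebpb, a transcription factor that ATF4 induces and that also acts in the acute phase response, was at 265, 266, 221, 255 and 230.2 FPKM in KO AP lungs, against 82.6, 65.8, 71.2, 98.9 and 83.5 FPKM in WT AP lungs. Cebpb with a sham operation was at 335, 285, 213, 254 and 396 FPKM in KO sham lungs, against 140.0, 113, 87.1, 85.9 and 125 FPKM in WT sham lungs. Its KO libraries were all above its WT libraries, and it had the lowest p of the 36 genes in AP lungs and in sham lungs, with differences of 1.62 ± 0.17 (adjusted p = 7.93e-07) and 1.41 ± 0.17 (adjusted p = 1.63e-06) in that order.

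Ddit3, which encodes CHOP, was at 40.3, 21.2, 46.1, 22.6 and 26.8 FPKM in KO AP lungs, against 24.4, 21.3, 22, 27.4 and 22.5 FPKM in WT AP lungs. Ddit3 with a sham operation was at 92.5, 49.7, 28.4, 24.5 and 102 FPKM in KO sham lungs, against 20.6, 19.8, 18.4, 22 and 27.3 FPKM in WT sham lungs. The groups overlapped in both treatments, with the highest values in KO sham libraries 1 and 5, and Ddit3 passed with a sham operation at 1.202 ± 0.31 (adjusted p = 0.00279) and did not pass with AP at 0.34 ± 0.31 (adjusted p = 0.366). Phgdh, the first enzyme of serine synthesis, had the largest difference of the 36 genes in each treatment, 2.97 ± 0.53 (adjusted p = 0.000113) in sham lungs and 1.71 ± 0.53 (adjusted p = 0.0106) in AP lungs, and ranged from 6.02 to 122 FPKM over the KO lung libraries, against 3.65 to 7.72 FPKM over the WT lung libraries. Shmt2 of the mitochondrial folate cycle and Slc3a2, the heavy chain of amino acid transporters, were higher in both treatments. Slc3a2 was lost on the TPM scale (0.119 in AP and 0.0879 in sham lungs). Trib3, a pseudokinase, and Chac1, which degrades glutathione, were higher in sham lungs, at 2.05 ± 0.52 (adjusted p = 0.00226) and 1.08 ± 0.33 (adjusted p = 0.00967) in that order, and Chac1 was lost when the length trend was removed (0.0943). Sesn2 and Ppp1r15a, which encodes the eIF2α phosphatase subunit GADD34, did not pass in either treatment.

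**Figure D3:**
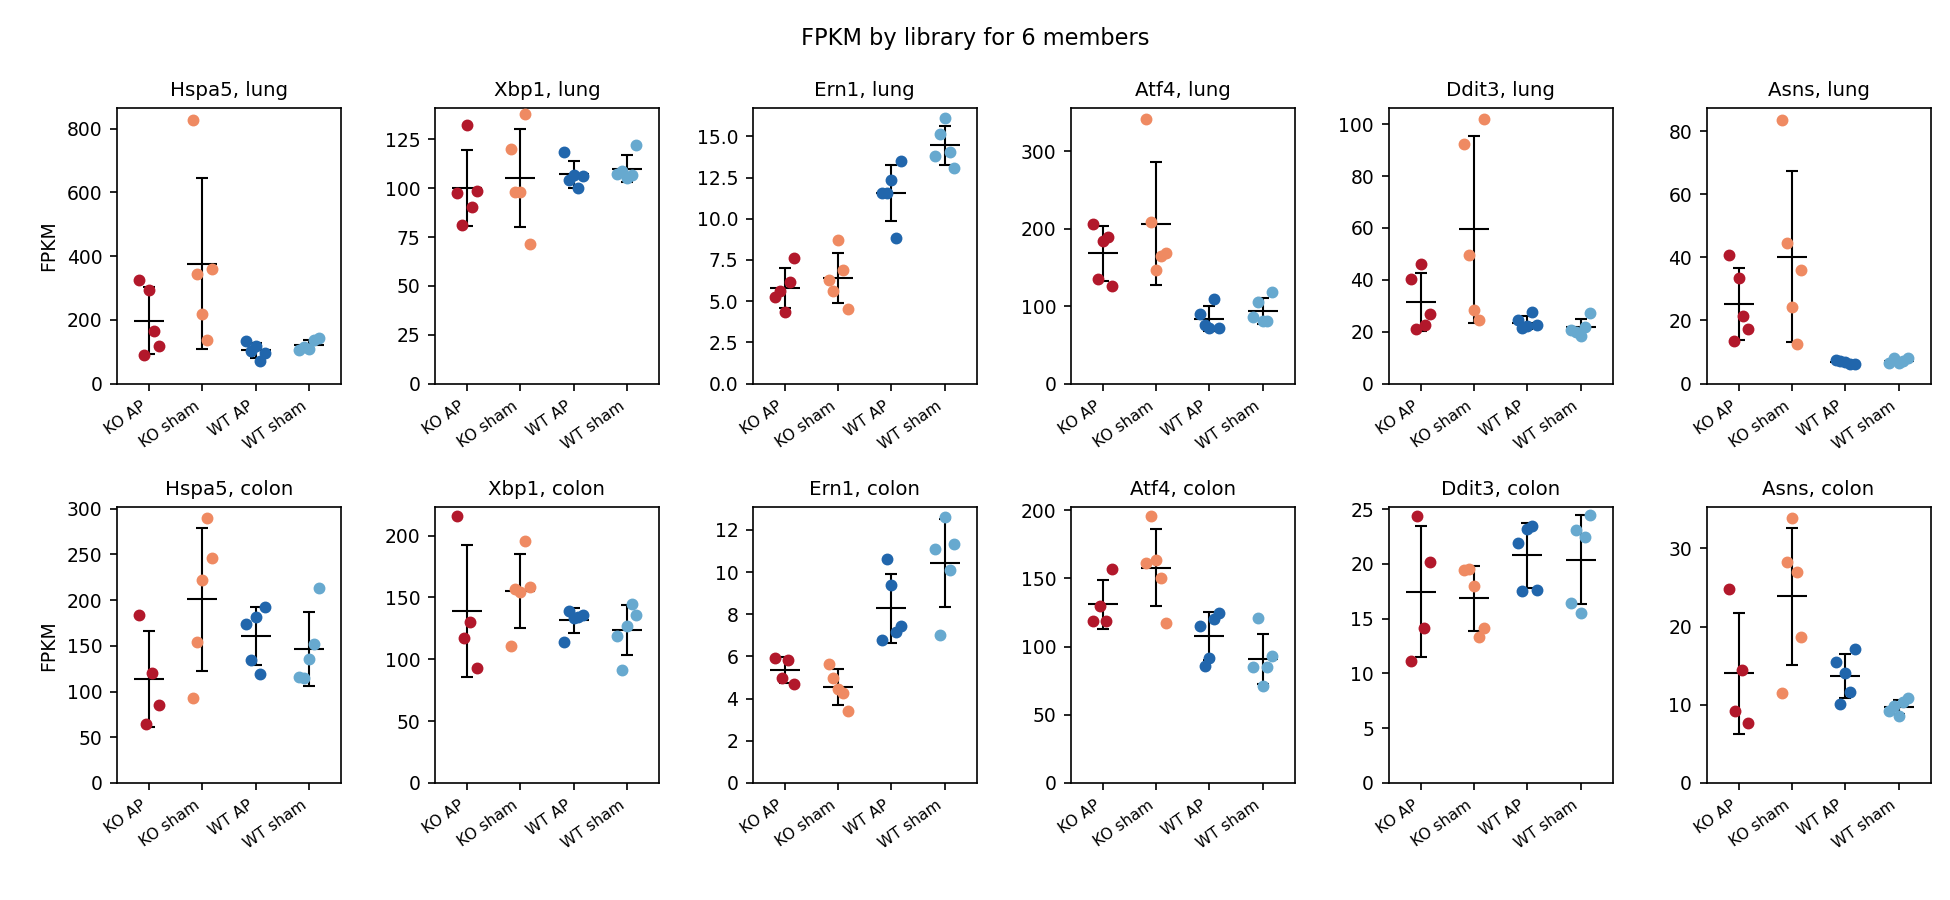
FPKM of Hspa5, Xbp1, Ern1, Atf4, Ddit3 and Asns in each library of the 8 groups; points are libraries and bars the mean and SD. KO lung libraries lie above all WT lung libraries for Atf4 and Asns and below them for Ern1 within each treatment, while Xbp1 overlaps between genotypes in both tissues.

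In the lung KO sham library 1 had the highest value of all libraries for 13 of 14 chaperones and 10 of 12 ATF4 targets, and KO AP library 2 had the lowest KO value for 8 chaperones and 7 ATF4 targets. Between KO and WT, groups did not overlap for 12 genes above and 4 below with AP, and for 15 above and 3 below with a sham operation. Over all genes tested 19.28% were wholly above and 18.71% wholly below with AP, and 19.33% above and 22.49% below with a sham operation. Herpud1 was the one gene whose lung calls were lost when a single library was left out; the other 18 called in AP lungs and 27 called in sham lungs passed without each library in turn.

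Of the 14 ER chaperones in the colon, 4 were lower and none higher in KO with AP, and 3 were higher and none lower with a sham operation. Their median difference was -0.56 with AP and 0.31 with a sham operation (log2). The share of chaperones lower with AP was 28.6%, beside 10.9% of all genes. The share higher with a sham operation was 21.4%, beside 16% of all genes. Hspa5 was at 184, 64.8, 121 and 85.6 FPKM in KO AP colons, against 174, 135, 181, 119 and 193 FPKM in WT AP colons. KO AP libraries 3 and 5 were below the WT AP libraries and libraries 1 and 4 were within their range, and Hspa5 did not pass at -0.58 ± 0.32 (adjusted p = 0.213). Hspa5 with a sham operation was at 92.7, 154, 222, 290.0 and 246 FPKM in KO sham colons, against 116, 115, 136, 152 and 213 FPKM in WT sham colons. KO sham library 1 was below every WT sham library and libraries 3, 4 and 5 were above every one, and the difference of 0.39 ± 0.30 (adjusted p = 0.339) did not pass.

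Sdf2l1, the partner of the J-protein Dnajb11, was at 24.9, 12.2, 18.9 and 13 FPKM in KO AP colons, against 36.7, 33.1, 36.7, 31.1 and 52.8 FPKM in WT AP colons. The groups did not overlap, and Sdf2l1 was lower at -1.13 ± 0.32 (adjusted p = 0.0205), a call lost without any 1 of KO AP libraries 3 (0.0684) and 5 (0.0626) or WT AP library 5 (0.0522). Creld2 was at 26.1, 23.1, 23.2 and 23.4 FPKM in KO AP colons, against 46.1, 32.1, 37, 37.7 and 59.9 FPKM in WT AP colons. Its KO AP libraries lay close together below all WT AP libraries, and the difference of -0.77 ± 0.24 (adjusted p = 0.0308) was lost without any 1 of KO AP libraries 3 (0.0679), 4 (0.0614) and 5 (0.0651) or any 1 of WT AP libraries 1 (0.058) and 5 (0.0794) and with no filter on low values (0.0616). Dnajc3 was at 22.8, 12.8, 18.5 and 12.5 FPKM in KO AP colons, against 22.6, 22.9, 23, 23.3 and 25.5 FPKM in WT AP colons. KO AP library 1 was within the WT AP range and the others were below it, and Dnajc3 was lower at -0.51 ± 0.15 (adjusted p = 0.0293). Dnajc3 was lost without any 1 of KO AP libraries 3 (0.103) and 5 (0.106) or any 1 of WT AP libraries 2 (0.0535), 3 (0.0532) and 5 (0.0627), with the AP groups alone (0.076) and on the TPM scale without mitochondrial genes (0.0546). Manf was also lower, at -0.83 ± 0.26 (adjusted p = 0.0343), and was lost without any 1 of KO AP libraries 3 (0.0726), 4 (0.068) and 5 (0.0637) or any 1 of WT AP libraries 1 (0.0769), 4 (0.0608) and 5 (0.0856), with no filter on low values (0.0694) and with array weights (0.0704).

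Dnajb11, an ER J-protein that works with BiP, was at 68.5, 138, 108, 99.5 and 81.4 FPKM in KO sham colons, against 48.7, 62.3, 52.8, 59.5 and 60.6 FPKM in WT sham colons. The sham groups did not overlap, and Dnajb11 was higher by 0.76 ± 0.19 (adjusted p = 0.00705). Pdia6 was at 60.1, 113, 129.9, 121 and 112 FPKM in KO sham colons, against 68.2, 56.2, 67.3, 83.5 and 76.8 FPKM in WT sham colons. KO sham library 1 was below all but 1 WT sham library and the other KO sham libraries were above them all, and the difference of 0.56 ± 0.20 (adjusted p = 0.0352) was lost without any 1 of KO sham libraries 2 (0.0722), 3 (0.0883), 4 (0.0801) and 5 (0.0654) or any 1 of WT sham libraries 1 (0.064), 2 (0.0727) and 3 (0.0702). Pdia6 was also lost on the TPM scale (0.222), with the upper quartile (0.0555), with no filter on low values (0.0662), with the sham groups alone (0.0632) and with the length trend removed (0.176). Canx, calnexin, was at 68.3, 94.2, 90.1, 81.9 and 80.2 FPKM in KO sham colons, against 62.3, 55.4, 64.7, 63 and 74.8 FPKM in WT sham colons. The one KO value within the WT range was again that of KO sham library 1, and the difference of 0.37 ± 0.13 (adjusted p = 0.0461) was lost without any 1 of KO sham libraries 2 (0.106), 3 (0.0961), 4 (0.0732) and 5 (0.0636), any 1 of WT AP libraries 1 (0.0556), 2 (0.0552), 3 (0.0561) and 4 (0.0528) or any 1 of WT sham libraries 1 (0.0839), 2 (0.0885), 3 (0.0775) and 4 (0.0796). Canx was also lost on the TPM scale (0.431), with the upper quartile (0.098), with no filter on low values (0.0685) and with the sham groups alone (0.0504).

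Of the 5 ERAD genes in the colon, Edem1 was lower in KO with AP, and Edem1 and Sel1l were lower with a sham operation. These shares were 20% and 40%, beside 10.9% and 15.4% of all genes. Edem1 was at 23.2, 18.8, 23.1 and 22.3 FPKM in KO AP colons, against 28.3, 31.5, 29.8, 28 and 32.6 FPKM in WT AP colons. Edem1 with a sham operation was at 20.03, 22.5, 23.2, 20.54 and 30.4 FPKM in KO sham colons, against 27.1, 30.4, 28.2, 27 and 30.03 FPKM in WT sham colons. The AP groups did not overlap, with a difference of -0.44 ± 0.11 (adjusted p = 0.0131), while KO sham library 5 was above 4 of the 5 WT sham libraries and the sham difference was -0.29 ± 0.11 (adjusted p = 0.0446). The sham call was lost without any 1 of KO sham libraries 1 (0.0939), 2 (0.0781), 3 (0.0707) and 4 (0.106), any 1 of WT AP libraries 1 (0.053), 2 (0.0526), 3 (0.0548), 4 (0.0518) and 5 (0.0507) or any 1 of WT sham libraries 1 (0.0596), 2 (0.0725), 3 (0.0761), 4 (0.0588) and 5 (0.0949), with no filter on low values (0.0526), with the sham groups alone (0.096), with the length trend removed (0.824) and without both KO libraries numbered 1 (0.0878). Sel1l was at 14.5, 16.3, 14.2, 11.8 and 13.5 FPKM in KO sham colons, against 17, 16.4, 20.7, 16.1 and 19.9 FPKM in WT sham colons. KO sham library 2 reached into the WT sham range, and the difference of -0.34 ± 0.10 (adjusted p = 0.0211) was lost without KO sham library 4 (0.0605) or any 1 of WT sham libraries 3 (0.0657) and 5 (0.0594), with the sham groups alone (0.0539) and with the length trend removed (0.592). Herpud1, Syvn1 and Derl3 did not pass in either treatment; Derl3 ranged from 2.16 to 12.3 FPKM in KO AP colons, against 3.35 to 11.3 FPKM in WT AP colons.

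Of the 5 sensors and factors in the colon, Ern1 and Eif2ak3 were lower in KO with AP, and Ern1, Eif2ak3 and Atf6 were lower and Atf4 higher with a sham operation. The share lower with AP was 40%, beside 10.9% of all genes. With a sham operation 60% were lower and 20% higher, beside 15.4% and 16% of all genes. Ern1 was at 5.92, 4.97, 5.85 and 4.68 FPKM in KO AP colons, against 6.79, 10.6, 9.38, 7.17 and 7.46 FPKM in WT AP colons. Ern1 with a sham operation was at 5.65, 4.99, 4.46, 4.26 and 3.4 FPKM in KO sham colons, against 11.1, 7.03, 12.6, 10.1 and 11.3 FPKM in WT sham colons. KO and WT libraries did not overlap in either treatment, and the differences were -0.53 ± 0.16 (adjusted p = 0.0286) in AP and -1.03 ± 0.15 (adjusted p = 0.000211) in sham colons. The AP call was lost without any 1 of KO AP libraries 3 (0.0707) and 5 (0.0806) or any 1 of WT AP libraries 2 (0.0811) and 3 (0.0715), with no filter on low values (0.0512) and on the TPM scale (0.0599). Eif2ak3 was at 6.78, 5.5, 6.34 and 4.54 FPKM in KO AP colons, against 9.61, 9.03, 10.7, 9.03 and 9.54 FPKM in WT AP colons. Eif2ak3 with a sham operation was at 6.55, 5.49, 6.96, 6.18 and 7.12 FPKM in KO sham colons, against 8.85, 10.9, 12.2, 9.75 and 11.1 FPKM in WT sham colons. Each KO library was below each WT library of its treatment, with differences of -0.65 ± 0.12 (adjusted p = 0.00183) and -0.63 ± 0.11 (adjusted p = 0.000717) in that order. Eif2ak3 and Edem1 were the 2 genes whose AP calls held without each library in turn.

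Atf6 was at 4.76, 4.51, 5.1, 4.31 and 5.79 FPKM in KO sham colons, against 7.06, 8.87, 8.11, 6.34 and 7.11 FPKM in WT sham colons. The sham groups did not overlap, and Atf6 was lower at -0.53 ± 0.10 (adjusted p = 0.00149), a call lost when the length trend was removed (0.085). With AP its difference of -0.31 ± 0.11 (adjusted p = 0.0585) did not pass although the groups did not overlap. Xbp1 was at 216, 117, 130.1 and 92.9 FPKM in KO AP colons, against 114, 139, 134, 135 and 136 FPKM in WT AP colons. Xbp1 with a sham operation was at 111, 157, 155, 196 and 158 FPKM in KO sham colons, against 119, 91.7, 127, 144 and 136 FPKM in WT sham colons. KO libraries lay above and below the WT libraries with AP and mostly above them with a sham operation, and neither difference passed, at 0.01 ± 0.20 (adjusted p = 0.974) and 0.32 ± 0.19 (adjusted p = 0.211) in that order. Atf4 was at 118, 129.7, 119 and 157 FPKM in KO AP colons, against 115, 85.6, 91.9, 120.4 and 125 FPKM in WT AP colons. Atf4 with a sham operation was at 161, 196, 163, 150.3 and 117 FPKM in KO sham colons, against 84.8, 121, 71, 85.2 and 93.1 FPKM in WT sham colons. The groups overlapped in both treatments, at KO sham library 5 alone in the sham groups, and Atf4 passed with a sham operation at 0.79 ± 0.16 (adjusted p = 0.00178) and did not pass with AP at 0.29 ± 0.17 (adjusted p = 0.251).

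Of the 11 ATF4 targets tested in the colon, 1 was higher and 1 lower in KO with AP, and 6 were higher and none lower with a sham operation. Their median difference was -0.20 with AP and 0.87 with a sham operation (log2). With AP 9.09% of ATF4 targets were higher and 9.09% lower, beside 7.37% and 10.9% of all genes. With a sham operation 54.5% were higher, beside 16% of all genes. Asns was at 24.8, 9.19, 14.4 and 7.63 FPKM in KO AP colons, against 15.5, 10.05, 14.1, 11.6 and 17.1 FPKM in WT AP colons. KO AP libraries lay on both sides of the WT AP libraries, and the difference was -0.08 ± 0.29 (adjusted p = 0.886). Asns with a sham operation was at 11.6, 28.2, 33.9, 27 and 18.7 FPKM in KO sham colons, against 9.2, 9.86, 8.62, 10.3 and 10.9 FPKM in WT sham colons. The sham groups did not overlap, with KO sham library 1 nearest to the WT sham libraries, and Asns was higher by 1.13 ± 0.28 (adjusted p = 0.00569). Cebpb was at 30.9, 41.2, 23.9 and 47.7 FPKM in KO AP colons, against 22.3, 21.8, 16.1, 16.6 and 29.4 FPKM in WT AP colons. Cebpb with a sham operation was at 40.5, 58, 47.5, 52.9 and 62.2 FPKM in KO sham colons, against 18.5, 29.8, 12.7, 16.9 and 20.3 FPKM in WT sham colons. KO AP library 4 was within the WT AP range and the other KO AP libraries were above it, and Cebpb was higher by 0.72 ± 0.23 (adjusted p = 0.0384) with AP and 1.40 ± 0.22 (adjusted p = 0.000312) with a sham operation. The AP call was lost without any 1 of KO AP libraries 3 (0.105) and 5 (0.13) or any 1 of WT AP libraries 1 (0.0514), 2 (0.0654), 3 (0.0973) and 4 (0.0757), with no filter on low values (0.0744), with the AP groups alone (0.0639) and on the TPM scale (0.0696).

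Phgdh was at 8.01, 32.3, 39.2, 30.9 and 35.4 FPKM in KO sham colons, against 13.9, 4.84, 8.9, 11.3 and 9.67 FPKM in WT sham colons. KO sham library 1 was within the WT sham range and the other 4 KO sham libraries were far above it, and Phgdh was higher by 1.39 ± 0.37 (adjusted p = 0.0086). Psat1, Mthfd2 and Shmt2 were also higher in KO sham colons, by 1.24, 0.88 and 0.87 in that order (log2). Shmt2 had an adjusted p of 0.0242 and was lost without any 1 of KO sham libraries 3 (0.0521), 4 (0.0692) and 5 (0.0598) or WT sham library 2 (0.0589), with no filter on low values (0.0524), with the sham groups alone (0.0515), on the TPM scale (0.133) and with the length trend removed (0.0774). Ddit3 was at 11.2, 24.4, 14.2 and 20.2 FPKM in KO AP colons, against 21.9, 17.5, 23.2, 23.5 and 17.7 FPKM in WT AP colons. Ddit3 with a sham operation was at 19.4, 19.6, 18, 13.3 and 14.1 FPKM in KO sham colons, against 16.4, 23.1, 15.5, 22.5 and 24.4 FPKM in WT sham colons. The groups overlapped and neither difference passed, at -0.28 ± 0.20 (adjusted p = 0.339) in AP and -0.25 ± 0.19 (adjusted p = 0.321) in sham colons.

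Chac1 was low in the colon, at 0.467, 0.663, 0.292 and 0.887 FPKM in KO AP colons, against 1.76, 0.841, 1.37, 1.18 and 2.18 FPKM in WT AP colons. KO AP library 5 overlapped the lowest WT AP library, and Chac1 was lower at -0.63 ± 0.19 (adjusted p = 0.0287). It was lost without any 1 of KO AP libraries 1 (0.0502) and 4 (0.0825) or any 1 of WT AP libraries 1 (0.0594), 3 (0.0525) and 5 (0.0745), with no filter on low values (0.0586), with array weights (0.064) and with the AP groups alone (0.0503). Slc3a2, Sesn2 and Ppp1r15a did not pass in either treatment, and Trib3 lay between 0.119 and 0.861 FPKM over all colon libraries.

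In AP colons 0 genes were wholly above and 8 wholly below in KO, against 6.76% of all genes above and 8.606% below. In sham colons 3 were wholly above and 3 wholly below, against 9.126% of all genes above and 8.146% below. Without both KO libraries numbered 1, a choice made after seeing the data, 1 gene was higher and 18 lower in KO AP colons (24.6% of all genes called), and 15 were higher and 4 lower in KO sham colons (36.4% of all genes called). The 18 lower comprised 10 of 14 chaperones, Hspa5 among them, the 3 sensors Ern1, Eif2ak3 and Atf6, 4 ATF4 targets and Edem1. The 15 higher comprised 7 chaperones, Hspa5 again among them, 6 ATF4 targets, Atf4 and Xbp1. With all libraries Hspa5 passed in neither comparison and Atf6 did not pass in AP colons. Without KO sham library 1 alone the counts were 1 higher and 10 lower with AP and 13 higher and 4 lower with a sham operation, and without KO AP library 1 alone they were 1 and 12 with AP and 10 and 5 with a sham operation. Without KO AP library 4 alone they were 1 and 5 with AP and 10 and 5 with a sham operation. Against 9 genes called in AP colons with all libraries, 3 were called without KO AP library 3 (Edem1, Eif2ak3 and Chac1), 4 without KO AP library 5 (the same 3 and Derl3, which is not among the 9), 5 without WT AP library 3 and 4 without WT AP library 5.

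The response to pancreatitis was read from AP against sham within each genotype, and none of the members tested passed in either tissue or genotype. Over all genes 0.0125% passed in KO lungs, 0.0814% in WT lungs, 0.04% in KO colons and 0% in WT colons. At an unadjusted p under 0.05, limma gave 15 of 36 members in KO lungs, 2 of 36 in WT lungs, 15 of 35 in KO colons and 2 of 35 in WT colons, beside 2234, 1066, 2798 and 938 genes of all tested in the same order. With array weights 3 members passed in WT lungs and 14 in KO colons, beside 10.3% and 6.84% of all genes in the same order. In KO lungs all 36 differences were negative, with a median of -0.53 for chaperones and -0.50 for ATF4 targets (log2), and the lowest adjusted p was that of Edem1 at -0.36 ± 0.10 (adjusted p = 0.176), whose KO AP libraries were all below the KO sham libraries. In WT lungs the medians were 0.00 and 0.07. In KO colons 13 of 14 chaperones were negative, with medians of -0.65 for chaperones and -0.56 for ATF4 targets, and in WT colons 13 of 14 chaperones were positive, with medians of 0.25 and 0.21. Over all genes 46.9% of differences were positive in KO lungs, 46.1% in KO colons and 53.1% in WT colons. The members share libraries, so their signs are not independent of each other.

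The genes nearest to the threshold in KO colons were the chaperones and an enzyme of serine synthesis. Sdf2l1 was at 24.9, 12.2, 18.9 and 13 FPKM in KO AP colons, against 13.9, 37, 45.5, 63.3 and 57 FPKM in KO sham colons. The libraries numbered 1, KO AP and KO sham, bridged the gap between the other libraries, and the difference was -1.18 ± 0.32 (adjusted p = 0.0982). Phgdh was at 16, 5.55, 8.75 and 9.11 FPKM in KO AP colons, against 8.01, 32.3, 39.2, 30.9 and 35.4 FPKM in KO sham colons. Its values overlapped through the same 2 libraries, and the difference was -1.39 ± 0.39 (adjusted p = 0.103). Pdia6 followed at -0.76 ± 0.21 (adjusted p = 0.0997) and Creld2 at -0.85 ± 0.24 (adjusted p = 0.103). None of these passed.

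The difference between KO and WT in the AP response, which tests whether the genotypes responded unlike each other, passed for no member in either tissue, beside 0% of all genes in the lung and 0% in the colon. At an unadjusted p under 0.05, limma gave 2 members of 36 in the lung, beside 1384 of all genes, and 17 of 35 in the colon, beside 2821. With array weights 2 members passed in the lung and 16 in the colon, beside 1.92% and 12.6% of all genes in the same order. In the colon Creld2 had -1.35 ± 0.32 (adjusted p = 0.107), Mthfd2 -1.42 ± 0.34 (adjusted p = 0.107), Pdia6 -1.16 ± 0.28 (adjusted p = 0.107) and Phgdh -2.05 ± 0.53 (adjusted p = 0.107).

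These colon results turned on the libraries numbered 1. Without both of them 18 genes were lower in KO AP than in KO sham colons, beside 18.8% of all genes called, and 17 had a lower AP response in KO than in WT, beside 15.3% of all genes called. The 18 were 12 of 14 chaperones, Xbp1 and 5 ATF4 targets (Phgdh, Psat1, Asns, Mthfd2 and Shmt2). Hspa5 then had a difference of -1.34 between KO AP and KO sham colons (adjusted p = 0.00408), Sdf2l1 one of -1.72 (0.000795), Asns one of -1.31 (0.00174) and Phgdh one of -2.03 (0.000981). Without KO sham library 1 alone 13 and 11 genes passed in these comparisons, beside 9.16% and 7.8% of all genes, and without KO AP library 1 alone 7 and 5 passed, beside 3.71% and 1.52%. Without KO AP library 4, which also correlated more with the KO sham libraries, 0 and 0 passed. The 2 libraries numbered 1 were picked out because they correlated with the other treatment, so leaving them out by construction widens the gap between KO AP and KO sham colons.

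Chaperones and ATF4 targets were then set against each other within each library, as the mean log2(FPKM + 1) of the 14 chaperones minus that of the 12 ATF4 targets, with no test since the genes were chosen with results known. In the lung this was 1.36 ± 0.14 in KO AP, 1.39 ± 0.28 in KO sham, 1.86 ± 0.14 in WT AP and 1.94 ± 0.14 in WT sham libraries (SD, n = 5 each). ATF4 targets thus stood higher relative to chaperones in KO lungs, by 0.50 with AP and 0.55 with a sham operation. KO sham library 4, at 1.81, lay within the WT sham range of 1.75 to 2.07. With the length trend removed, the median KO minus WT differences in sham lungs were 0.84 for chaperones and 1.09 for ATF4 targets, against 0.90 and 1.43. In AP lungs they were 0.34 and 0.83, against 0.39 and 1.04. In the colon it was 2.53 ± 0.37 in KO AP (n = 4), 2.62 ± 0.15 in KO sham, 2.84 ± 0.05 in WT AP and 2.87 ± 0.16 in WT sham libraries (SD, n = 5 for these). With the median over genes in place of the mean, the difference between KO AP and WT AP colons was -0.05, against -0.31 with the mean, and the lung differences were -0.77 with AP and -0.79 with a sham operation.

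Set beside the promoter letters, 5 of the 7 chaperones with the ER stress response element were higher in KO sham lungs and 1 was lower, and 4 of the 5 with a window but without the element were higher. Among ATF4 targets in sham lungs, 3 of 3 with TGATGNAA and 7 of 9 without it were higher. Both means, of chaperones and of ATF4 targets, were higher in KO than in WT lungs in each treatment. Chaperones averaged 5.97 ± 0.42 in KO AP, 6.53 ± 0.52 in KO sham, 5.54 ± 0.15 in WT AP and 5.58 ± 0.17 in WT sham lungs, and ATF4 targets averaged 4.61 ± 0.49, 5.14 ± 0.78, 3.68 ± 0.07 and 3.64 ± 0.08 in the same order. In the colon chaperones averaged 5.58 ± 0.38 in KO AP, 6.18 ± 0.41 in KO sham, 6.11 ± 0.20 in WT AP and 5.87 ± 0.18 in WT sham libraries, and ATF4 targets averaged 3.05 ± 0.13, 3.56 ± 0.29, 3.27 ± 0.17 and 3.005 ± 0.11 in the same order. The KO AP colons were thus the lowest group for chaperones, and their ATF4 targets were at the level of WT sham colons. Mitochondrially encoded genes held 10.6% to 19.1% of the summed FPKM in KO AP and 4.62% to 13.5% in KO sham colons, against 7.02% to 11.6% in WT AP and 7.47% to 14.1% in WT sham colons. On a TPM scale without these genes 1 member was higher and 6 were lower in KO AP colons, and the median chaperone stood at -0.59, against -0.56 as deposited (log2, KO minus WT).

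**Figure D4:**
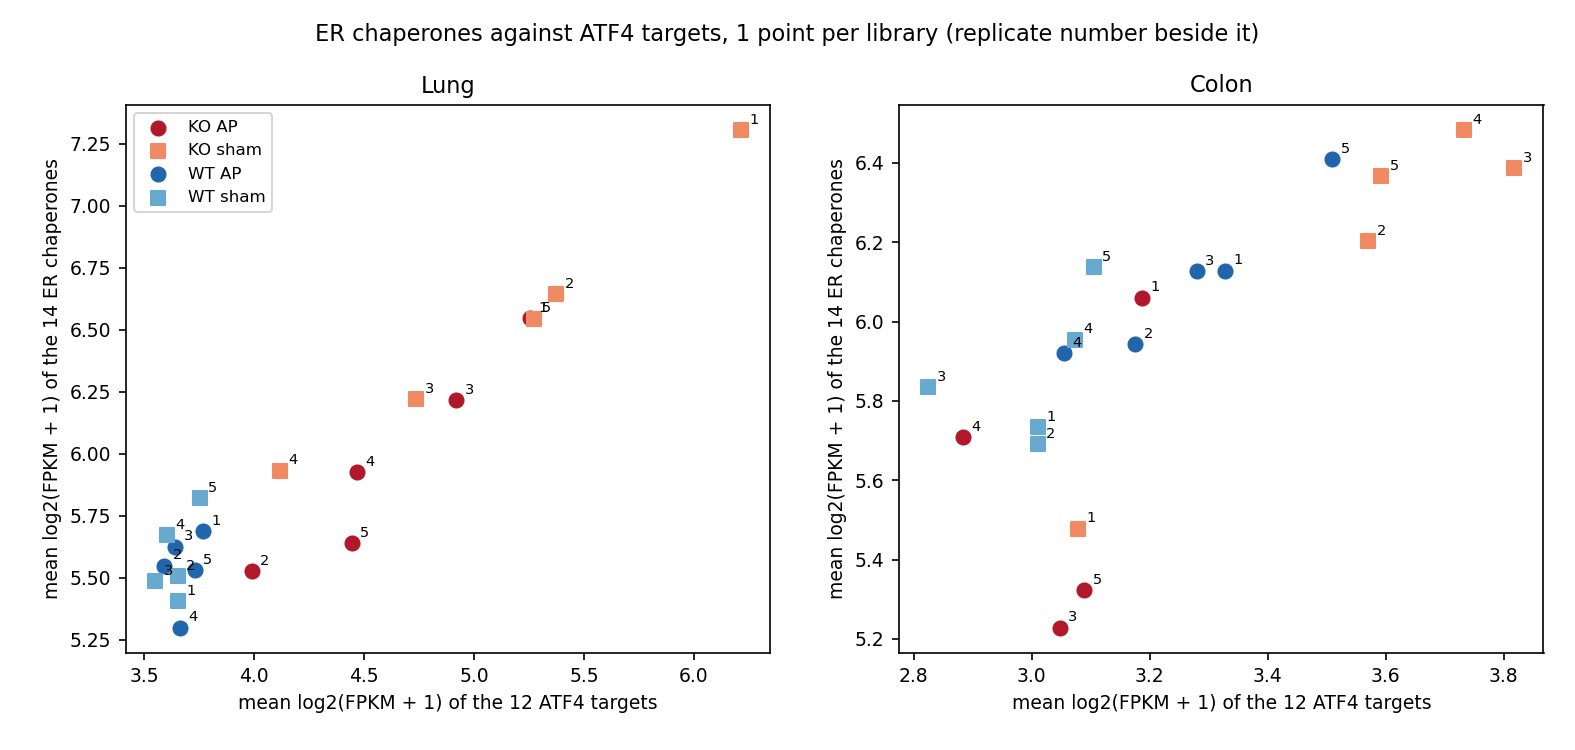
Mean log2(FPKM + 1) of the 14 chaperones (y axis) against that of the 12 ATF4 targets (x axis), 1 point per library, for lung and colon. KO lung libraries run from the WT lung cluster up to KO sham library 1 along 1 diagonal. They lie to the right of the WT lung libraries, at higher ATF4 targets, while the genotypes overlap in colon.

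Hspa5 and Asns, the reporters of the chaperone and ATF4 branches, had positive correlations over the libraries of each genotype and tissue. In KO lungs Pearson's r of log2(FPKM + 1) was 0.986 (permutation p = 0.00014, adjusted 0.00056 over the 4 relations computed) and Spearman's rho 0.927 (p = 0.00042, adjusted 0.00168), and r was 0.951 without KO sham library 1 and KO AP library 2, the farthest from the median of Hspa5. In WT lungs r was 0.745 (permutation p = 0.0113, adjusted 0.0226) and rho 0.745 (p = 0.0176, adjusted 0.0285), and r was 0.547 without WT AP library 4 and WT sham library 5. In KO colons r was 0.760 (exact permutation p = 0.0234, adjusted 0.0312, n = 9) and rho 0.767 (p = 0.0214, adjusted 0.0285), and r was 0.953 without KO sham libraries 4 and 5. In WT colons r was 0.624 (permutation p = 0.0669, adjusted 0.0669) and rho 0.648 (p = 0.0492, adjusted 0.0492), and r was 0.782 without WT sham library 5 and WT AP library 5. Each relation pools the AP and sham libraries of a genotype. The pair was chosen with results of these data known, and no other pairs are given as a background. The p-values thus do not set this pair apart from other genes.

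Other genes of the pathways, 57 listed and 56 found, were counted in the same fits. Of all lung genes 27.6% were higher and 28.1% lower in KO AP, and 28.8% and 30% in KO sham. Of all colon genes 7.37% were higher and 10.9% lower in KO AP, and 16% and 15.4% in KO sham. Of 20 further ER folding, translocation and ERAD genes, 7 were higher and 2 lower in KO AP lungs and 11 higher and 2 lower in KO sham lungs. Sec61b, a subunit of the channel through which proteins enter the ER, was higher by 1.001 ± 0.22 (adjusted p = 0.00071) in AP and 1.49 ± 0.22 (adjusted p = 1.22e-05) in sham lungs, and the disulfide isomerase P4hb by 0.88 ± 0.15 (adjusted p = 5.98e-05) in sham lungs. The ERAD mannosidases split, with Edem2 higher by 0.90 ± 0.13 (adjusted p = 2.05e-05) and Edem3 lower at -0.87 ± 0.11 (adjusted p = 7.19e-06) in AP lungs. In the colon 0 were higher and 3 lower in KO with AP and 7 higher and 2 lower with a sham operation. Pdia5, Txndc5 and Os9 were the 3 lower in AP colons, at -0.86 ± 0.13 (adjusted p = 0.000876), -0.78 ± 0.14 (adjusted p = 0.00209) and -0.43 ± 0.11 (adjusted p = 0.0142) in that order. Derl1 was higher in sham colons by 0.49 ± 0.09 (adjusted p = 0.000875) and Edem3 lower at -0.996 ± 0.21 (adjusted p = 0.00244).

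Of 21 further ATF4 and amino acid response genes in the lung, 11 were higher and 1 lower in KO with AP and 17 higher and 2 lower with a sham operation. The shares of all lung genes were 27.6% higher and 28.1% lower with AP, and 28.8% and 30% with a sham operation. Nupr1, a stress-induced chromatin protein, averaged 634 ± 217 FPKM in KO AP lungs, against 135 ± 51.8 FPKM in WT AP lungs (SD, n = 5 each), a difference of 2.23 ± 0.49 (adjusted p = 0.000902). Psph, the last enzyme of serine synthesis, was higher by 1.197 ± 0.23 (adjusted p = 0.000289) in AP and 1.73 ± 0.23 (adjusted p = 6.2e-06) in sham lungs, and Pycr1 of proline synthesis by 1.84 ± 0.42 (adjusted p = 0.00111) in AP lungs. The aminoacyl-tRNA synthetase gene Sars1 was higher by 1.10 ± 0.17 (adjusted p = 2.98e-05) in sham lungs. Vldlr, a lipoprotein receptor, was lower, at -1.46 ± 0.18 (adjusted p = 4.49e-06) in AP and -1.60 ± 0.18 (adjusted p = 1.13e-06) in sham lungs. Of 20 tested in the colon, 0 were higher and 3 lower in KO with AP (Atf3, Cars1 and Wars1), and 6 were higher and 1 lower with a sham operation. The shares of all colon genes were 7.37% higher and 10.9% lower with AP, and 16% and 15.4% with a sham operation. Psph was higher in sham colons by 0.91 ± 0.16 (adjusted p = 0.000676) and Atf5 by 0.87 ± 0.18 (adjusted p = 0.00229), while Atf3 was lower in AP colons at -0.92 ± 0.26 (adjusted p = 0.0198).

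Of 14 further signalling genes tested in the lung, 1 was higher and 7 lower in KO with AP, and 1 was higher and 8 lower with a sham operation. Over all lung genes 27.6% were higher and 28.1% lower with AP, and 28.8% and 30% with a sham operation. Creb3l2, a membrane-bound factor of the ATF6 kind, was lower at -0.88 ± 0.15 (adjusted p = 7.9e-05) in AP lungs, as were the Golgi proteases that cut ATF6, Mbtps1 at -0.81 ± 0.15 (adjusted p = 0.000212) and Mbtps2 at -0.54 ± 0.10 (adjusted p = 0.000267), and the kinase PKR (Eif2ak2) at -0.98 ± 0.20 (adjusted p = 0.000397). Of 15 tested in the colon, 0 were higher and 1 lower with AP and 0 higher and 4 lower with a sham operation. Over all colon genes 7.37% were higher and 10.9% lower with AP, and 16% and 15.4% with a sham operation. Ern2, the IRE1β gene of mucus-making epithelium, was the 1 lower in AP colons, at -1.22 ± 0.36 (adjusted p = 0.0247), and was lower in sham colons at -1.40 ± 0.34 (adjusted p = 0.00539). No gene of these lists passed between AP and sham in either genotype or in the difference between the responses.

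Some markers of secretory and other cell types differed between genotypes, and their part in the results was not tested. The marker counts in colon stand beside 7.37% of all genes higher and 10.9% lower in KO AP, and 16% and 15.4% in KO sham. In the colon 6 of 8 goblet cell markers were lower in KO with AP and 2 of 8 with a sham operation, and their summed level was 3042 to 5473 FPKM in KO AP and 4766 to 8527 FPKM in KO sham colons, against 8130 to 17170 FPKM in WT AP and 8242 to 15990 FPKM in WT sham colons. Of 7 plasma cell markers 4 were lower in KO AP and 3 in KO sham colons, with sums of 171.9 to 850.0 FPKM in KO AP and 277.5 to 444.3 FPKM in KO sham colons, against 301.5 to 853.7 FPKM in WT AP and 360.1 to 558.4 FPKM in WT sham colons. Smooth muscle markers were higher in KO, 4 of 5 in each treatment. Fibroblast markers were lower, 4 of 5 with AP and 3 of 5 with a sham operation, as were 3 and 4 of 6 macrophage markers and 2 and 1 of 3 adipocyte markers in the same order. Of 6 absorptive colonocyte markers 2 were higher with AP and 1 was lower with a sham operation, and of 4 neutrophil markers 1 was higher and 1 lower in each treatment. The neutrophil sum was 236.3 to 771.7 FPKM in KO AP and 116.8 to 494.9 FPKM in KO sham colons. It was 16.97 to 79.12 FPKM in WT AP and 49.44 to 73.84 FPKM in WT sham colons. Ly6g reached 768 FPKM, while no other neutrophil marker exceeded S100a9 at 8.29 FPKM, so the KO sums were mostly Ly6g. Cd177, at 38.5 to 76.4 FPKM in WT colons, stood above these other markers, and its cell source was not tested. Of 10 pancreatic acinar markers 6 were under 1 FPKM in every colon library, and Cela1 was higher in KO AP colons. Cela1 reached 451 FPKM in colon, while no other acinar marker exceeded Ctrb1 at 2.66 FPKM. The summed list, 99.88 to 132.0 FPKM in WT sham colons, was thus mostly Cela1 and is no measure of acinar cells here.

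In the lung 4 of 6 plasma cell markers tested were lower in KO in each treatment, with 1 higher with AP and 2 with a sham operation, while their sum was 99.81 to 171.2 FPKM in KO AP and 98.12 to 166.5 FPKM in KO sham lungs, against 93.35 to 102.7 FPKM in WT AP and 78.2 to 103.7 FPKM in WT sham lungs. Sdc1, which epithelium also expresses, made up most of that sum, with means of 106.8 FPKM in KO AP and 114.4 FPKM in KO sham lungs, against 66.75 FPKM in WT AP and 65.7 FPKM in WT sham lungs. Jchain, the joining chain of secreted antibodies, was lower in KO, at 2.52 FPKM in KO AP and 5.17 FPKM in KO sham lungs, against 14.7 FPKM in WT AP and 9.44 FPKM in WT sham lungs. All marker counts in lung stand beside 27.6% of all genes higher and 28.1% lower in KO AP, and 28.8% and 30% in KO sham. Of 6 alveolar type 2 markers 4 were lower in KO AP and 3 in KO sham lungs. Their sum was 19550 to 23180 FPKM in KO AP and 12450 to 77430 FPKM in KO sham lungs, against 21240 to 33020 FPKM in WT AP and 18750 to 28670 FPKM in WT sham lungs. Of 5 fibroblast markers 5 were lower with AP and 2 with a sham operation, and of 5 smooth muscle markers 4 were higher with AP and 3 with a sham operation. Of 6 macrophage markers 3 were lower with AP, and 2 were higher and 2 lower with a sham operation, and 2 of 4 alveolar type 1 markers were lower in each treatment. Of 6 neutrophil markers 2 were lower with AP and 1 was higher with a sham operation, and of 4 club cell markers 1 was higher with AP and 2 were lower with a sham operation. Of 5 goblet cell markers 1 was higher and 1 lower with AP and 1 higher with a sham operation, and of 4 adipocyte markers none passed. Of 10 acinar markers 9 were under 1 FPKM in every lung library.

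Differences between groups moved with transcript length over all genes, between genotypes and also between treatments. The members' results are also given with that trend removed. Over all genes tested, Spearman's rho between the longest spliced transcript of a gene and its KO minus WT difference was -0.339 in AP lungs, -0.435 in sham lungs, -0.051 in AP colons and -0.317 in sham colons, with genes as points that share libraries. For the AP minus sham difference rho was -0.330 in WT lungs, 0.099 in KO lungs, -0.323 in WT colons and 0.240 in KO colons. The trend was thus not confined to genotype. In sham lungs the median KO minus WT difference was 0.45 in the shortest of 5 length classes of equal size, in which 46.4% of genes were higher in KO, and -0.48 in the longest class, in which 61.7% were lower. These 2 medians were 0.30 and -0.36 in AP lungs, -0.01 and -0.06 in AP colons and 0.21 and -0.27 in sham colons. For AP minus sham they were 0.09 and -0.09 in WT lungs and -0.07 and 0.01 in KO lungs. In colons they were 0.10 and -0.11 in WT and -0.15 and 0.09 in KO. The trend in the lung was thus smaller between treatments than between genotypes. The median longest transcript was 2055 bases for ATF4 targets, 2487 for chaperones, 4080 for ERAD genes and 4513 for sensors and factors. With the trend removed 12 members were higher and 3 lower in AP lungs, 25 and 1 in sham lungs, 1 and 9 in AP colons and 8 and 3 in sham colons. Over all genes with a length the counts were then 4122 higher and 3964 lower of 15879 in AP lungs, 4048 and 3940 in sham lungs, 1260 and 1655 of 14937 in AP colons and 1806 and 1810 in sham colons. The median over chaperones was then 0.34 in AP and 0.84 in sham lungs, and that over ATF4 targets 0.83 in AP and 1.09 in sham lungs. Ern1 then differed by -0.57 in sham lungs (adjusted p = 0.000524), while Eif2ak3 and Atf6 there did not pass. Between AP and sham no member passed with the trend removed. The medians over chaperones and ATF4 targets were then -0.51 and -0.47 in KO lungs and -0.60 and -0.43 in KO colons. In WT they were -0.02 and 0.01 in lungs and 0.19 and 0.11 in colons.

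**Figure D5:**
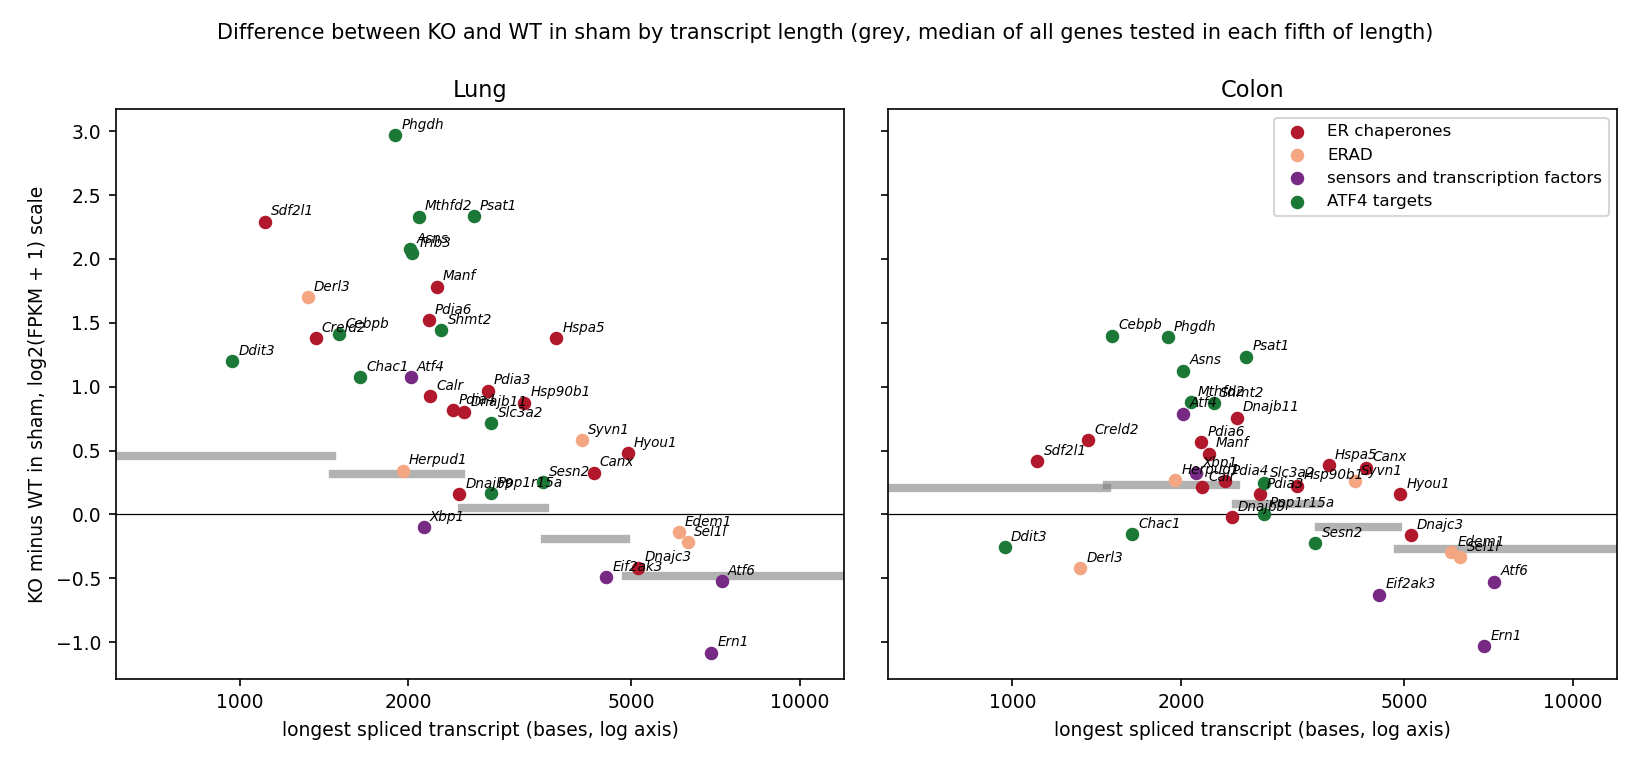
KO minus WT difference in mean log2(FPKM + 1) of each member with a sham operation (y axis) against its longest spliced transcript in bases (x axis, log scale), for lung and colon; the grey line is the median of all genes in each of 5 length classes. Ern1, Atf6 and Eif2ak3 lie at the long end below 0 in both tissues, and ATF4 targets lie at the short end, mostly above the grey line in lung.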

How the data were processed

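Per the labels' protocols, RNA was extracted with Trizol, enriched for mRNA, fragmented and sequenced on an Illumina platform. The submitters' processing notes name HISAT2 2.1.0 and StringTie 1.3.3b and, as genome build, mm39, with no role for any of them. The deposited values are FPKM, which the authors scaled by transcript length and by library size, in 1 table per tissue. The strandedness of the libraries and the annotation are not stated in the labels.

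The 36 genes, the further lists and the tests were chosen with earlier results of these data known. Libraries were grouped by tissue, genotype and treatment in the labels. Genes that reached 1 FPKM in 4 or more libraries of their tissue were taken as log2(FPKM + 1) and fitted with limma 3.58.1 (R 4.3.3), with 1 mean for each of 4 groups and variances that follow expression. FPKM are not counts, so no count test was run. The 5 comparisons per tissue set KO against WT for AP and for sham, AP against sham for each genotype, and tested the difference between the AP responses. Python 3.11.15, numpy 2.4.6, pandas 2.3.3, scipy 1.17.1 and matplotlib 3.10.9 served for permutation tests, scores and figures. The procedure was tested on simulated data.

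Hspa5, Xbp1, Atf4, Ddit3 and Asns were always given by library, with up to 3 called members of lowest p for each role and comparison, and up to 4 called genes of each further list were named by p. Alternatives were other pseudocounts (0.1 and 0.01), no filter, a mean of at least 5 FPKM, TPM, TPM without mitochondrial genes, upper quartile scaling, robust variances, array weights, the 2 groups compared alone, the replicate number as a block, and leaving out libraries. Removing the trend with transcript length, and leaving out both KO colon libraries numbered 1, were added after seeing the data. Promoter sequences are from RefSeq on GRCm38.p6, a build other than that of the values, and no coordinates were joined between them.

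Read totals were recovered by finding, for genes with a single transcript, the FPKM that 1 read is worth; 98.6% to 99.2% of such values came out whole within 0.02 read. Genes with several transcripts did not give whole reads, so reads could not be recovered for all.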

Additional observations from a re-analysis of the deposited data

Results flagged for a closer look

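In 284 groups of 4 or 5 libraries, 1 for each gene and group, 23 libraries (8.10%) stood apart from the others of their group by the gap between them and the nearest value, where chance alone would flag about 1 in 20 groups. The values are FPKM, with the range of the other libraries of the group.

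KO sham colon library 1 had Hsp90b1 at 95.3 (others 184 to 194), Pdia6 at 60.1 (others 112 to 129.9), Manf at 34.7 (others 74.6 to 87.4), Creld2 at 21.5 (others 47.9 to 57.1) and Phgdh at 8.01 (others 30.9 to 39.2). WT AP colon library 5 had Dnajc3 at 25.5 (others 22.6 to 23.4) and Sdf2l1 at 52.8 (others 31.1 to 36.7). KO AP colon library 1 had Creld2 at 26.1 (others 23.1 to 23.4) and Atf6 at 5.67 (others 5.02 to 5.11). WT AP colon library 1 had Derl3 at 3.35 (others 9.7 to 11.3) and Xbp1 at 114 (others 134 to 139). KO AP colon library 5 had Derl3 at 12.3 (others 2.16 to 3.88). The 5 genes of KO sham library 1 were all low and lay within the range of the KO AP libraries or near it.

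WT AP lung library 4 had Calr at 87.6 (others 132 to 149.7), Dnajc3 at 32.4 (others 39.5 to 42.2) and Sdf2l1 at 5.68 (others 9.59 to 10.8). WT sham lung library 5 had Creld2 at 38.4 (others 22.1 to 23.7) and Xbp1 at 122 (others 105 to 109). KO sham lung library 1 had Canx at 114 (others 72.6 to 83.2). KO AP lung library 2 had Herpud1 at 200.1 (others 148 to 159.6). KO AP lung library 1 had Atf6 at 9.04 (others 7.32 to 7.78). WT sham lung library 1 had Atf6 at 12.7 (others 13.5 to 13.8). WT AP lung library 5 had Sesn2 at 9.51 (others 6.16 to 7.01). WT sham lung library 2 had Slc3a2 at 169.8 (others 139 to 142). The 3 genes of WT AP library 4 were all low chaperones.

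Creld2 and Manf differed in opposite directions between tissues with AP. Creld2 was higher in KO AP than in WT AP lungs by 0.78 and lower in colons, at -0.77, and Manf was higher in lungs by 1.05 and lower in colons, at -0.83 (log2). In lungs and colons alike, the KO AP libraries of both genes did not overlap the WT AP libraries. The tables of the tissues were normalized separately and the difference between them was not tested.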

How the results depend on the processing

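With single libraries left out, 18 to 23 members were called for KO against WT in AP lungs and 27 to 29 in sham lungs, 3 to 13 in AP colons and 10 to 17 in sham colons, 0 to 13 for AP against sham in KO colons and 0 to 11 for the difference between the AP responses in colon. In AP colons 4 were called with no filter on low values, 15 with array weights, 5 with a replicate block and 19 without both KO libraries numbered 1. Array weights gave 3 for AP against sham in WT lungs, 2 for the difference between responses in lung, 14 for AP against sham in KO colons and 16 for the difference in colon, and leaving out both KO libraries numbered 1 gave 18 and 17 for these colon comparisons. Chaperones minus ATF4 targets, with the median over genes, stood at -0.77 in AP and -0.79 in sham lungs and -0.054 in AP colons for KO against WT, and at -0.17 for AP against sham in WT colons. With the length trend removed, the KO minus WT difference in sham lungs turned to 0.32 for Edem1 and 0.0052 for Atf6. The cause of these shifts was not tested. Of the other values of single members, 11107 kept their side of the threshold, 192 crossed it to pass and 153 ceased to pass.

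The replicate numbers did not pair the libraries: deviations of same-numbered libraries correlated at -0.017 on average in lung and -0.071 in colon, and 3 of 20 and 2 of 19 libraries correlated best with their own number. The replicate block gave 20 calls in AP lungs, 28 in sham lungs, 12 in sham colons and 0 in the comparisons of AP with sham.

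Genotype goes with read depth, and differences between genotypes and between treatments go with transcript length over all genes. The origin of either was not tested. Gene-level FPKM show neither Xbp1 splicing nor eIF2α phosphorylation nor translation of Atf4.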
